A study of Mus musculus with 2 samples.

Results

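Cardiac B cells were the barcodes of sorted heart leukocytes that carried B cell transcripts and passed limits on a few macrophage, T cell, and neutrophil transcripts. A barcode was kept when its number of genes lay above 500 and below 6000, and when mitochondrial transcripts took less than 25% of its unique molecular identifiers (UMIs, 1 per captured RNA molecule). B cells were selected among the kept barcodes on at least 5 UMIs of Cd79a, Cd79b, and Ms4a1 together. A B cell could hold at most 3 UMIs of C1qa, C1qb, and C1qc, at most 1 UMI of Cd3d, Cd3e, and Cd3g, and under 1% of its UMIs on S100a8 and S100a9. This gave 1090 B cells among 11078 kept barcodes, of which 1025 of 5641 were in the control library and 65 of 5437 in the library labeled TTS.

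Live CD45+ cells were sorted from collagenase-digested hearts of female C57BL6 mice and profiled by droplet sequencing with the 10x Genomics Chromium 3′ chemistry. The TTS mice, named for takotsubo syndrome, received 200 mg/kg isoproterenol (ISO), a β-adrenergic agonist, by intraperitoneal injection 24 hours earlier. The deposited label gives this treatment for both libraries, and the control was identified by its title and, in the methods of the study, by vehicle injection. The hearts of 3 mice were pooled and 15000 cells loaded for each group, so that there was 1 library per group and no difference between the libraries has a replicate check. No test was therefore made, and all intervals are 95% intervals that cover counting error only. All B cells, in both groups, had passed the same CD45 gate, and their share is relative to the other leukocytes of that gate.

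B cells recognize antigen through a membrane immunoglobulin made of heavy chains and κ or λ light chains, which signals through the Cd79a and Cd79b proteins. Pax5 and Ebf1 are transcription factors that hold B lineage identity, Ms4a1 encodes CD20, and Ly6d encodes a small surface protein of the B lineage. Newly formed B cells leave the bone marrow as transitional cells, mature into recirculating follicular or marginal zone cells, and can become plasma cells that secrete antibody. B cells in the healthy mouse heart lie largely within or along the small vessels.

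The control library held 47382455 UMIs in 5927 barcodes and the TTS library 58495112 UMIs in 5514 barcodes. Kept barcodes had a median depth of 4790 UMIs (control) and 8537 UMIs (TTS). Control B cells had a median of 3645 UMIs (range 1054 to 21881) and TTS B cells a median of 6450 UMIs (range 2787 to 26063). Their median mitochondrial share was 5.11% and 3.23%. Across the libraries, 15 barcode sequences were shared, and none of them was a B cell in both. In the control, 1543 kept barcodes had at least 5 B cell UMIs, and 518 of these were left out by the other limits, 487 of them for their C1q UMIs. In the TTS library, 137 had at least 5 B cell UMIs and 72 were left out, 66 of them for C1q.

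The rule left out some barcodes that carried other B cell transcripts. Among control barcodes that met the other limits, 164 had exactly 5 UMIs of the rule genes and 210 had 4 UMIs. Ly6d was found in 86.6% of the former and 87.1% of the latter, Ebf1 in 97.6% and 99.0%, and Ighm in 77.4% and 70.5%. The limit of 5 UMIs therefore divided barcodes with similar shares of these transcripts.

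The B cell label was checked against the 5 markers that the rule did not use. Because the cell types differed in depth, each barcode was thinned to 1000 UMIs before cells with a UMI were counted. After thinning, Igkc, the κ light chain constant gene, was found in 79.1% of control B cells (95% CI 76.5% to 81.6%), against 3.09% of 1002 control macrophages and 1.92% of 209 control T cells. Ebf1 was found in 79.5% of B cells, 3.69% of macrophages, and 1.44% of T cells. Ly6d was found in 73.3% of B cells, 2.50% of macrophages, and 0.481% of T cells. Pax5 was found in 41.2% of B cells, 0.998% of macrophages, and no T cell, where 0 of 208 cells allows a share of up to 1.44%. Ighm, the IgM heavy chain gene, was found in 54.9% of B cells, 10.5% of macrophages, and 6.73% of T cells. The median depth before thinning was 6612.5 UMIs in the macrophages and 5232 UMIs in the T cells. Each share was above those in macrophages and T cells. Plasmacytoid dendritic cells, known by Siglech, were closer in Ly6d, which was found in 40.9% of the 22 control cells of this type (95% CI 20.7% to 63.6%) and in 57.1% of the 56 in the TTS library. Ly6d therefore did not set the B cells apart from them, whereas Igkc was found in 13.6%, Ebf1 in 4.55%, and Pax5 in none of the control plasmacytoid dendritic cells. Igkc, Ebf1, and Pax5 bore out the label. In the 65 TTS B cells the thinned shares were lower for each of the 5 markers, at 70.8% for Igkc, 60.0% for Ebf1, 53.8% for Ly6d, 23.1% for Pax5, and 41.5% for Ighm. Each was above the share in the 1277 TTS macrophages, where it lay between 0.157% and 2.82%. Of the TTS B cells, 31 had under 1% of their UMIs on a list of macrophage genes given below. Among these, Igkc was found in 87.1% and Ighm in 58.1%, against 81.1% and 56.9% of the control B cells under this limit. Ebf1 (74.2% against 78.1%), Ly6d (58.1% against 72.2%), and Pax5 (35.5% against 41.5%) were lower.

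B cells made up 18.2% of the kept control cells (95% CI 17.2% to 19.2%) and 1.2% of the kept TTS cells (95% CI 0.924% to 1.52%). The share was 15.2-fold lower in the TTS library, a log2 ratio of −3.93 (95% CI −4.28 to −3.57). The share of a pooled library depends on the other cells sorted with it, and fewer B cells and more of other leukocytes cannot be told apart. Among kept cells with at most 3 C1q UMIs, B cells were 30.1% in the control and 1.87% in the TTS library.

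Many of the TTS B cell barcodes also carried macrophage and monocyte transcripts, although the rule had limited C1q. A list of 20 such genes, among them Lyz2, Apoe, Il1b, Spp1, and Tyrobp, took a median of 0.0665% of the UMIs of a control B cell (range 0 to 5.11%) and 1.13% of the UMIs of a TTS B cell (range 0.0248% to 12.1%). Lyz2, the lysozyme gene of myeloid cells, was found in 350 of 1025 control and 45 of 65 TTS B cells. Spp1, which encodes osteopontin, was found in 6 control and 36 TTS B cells. Summed over the cells of a library and scaled to its total UMIs as CPM, the list stood at 2134 CPM in control and at 48129 CPM in TTS B cells. All 20 genes had UMIs in control B cells, and C1qc was at 0 in TTS B cells.

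**Figure D1:**
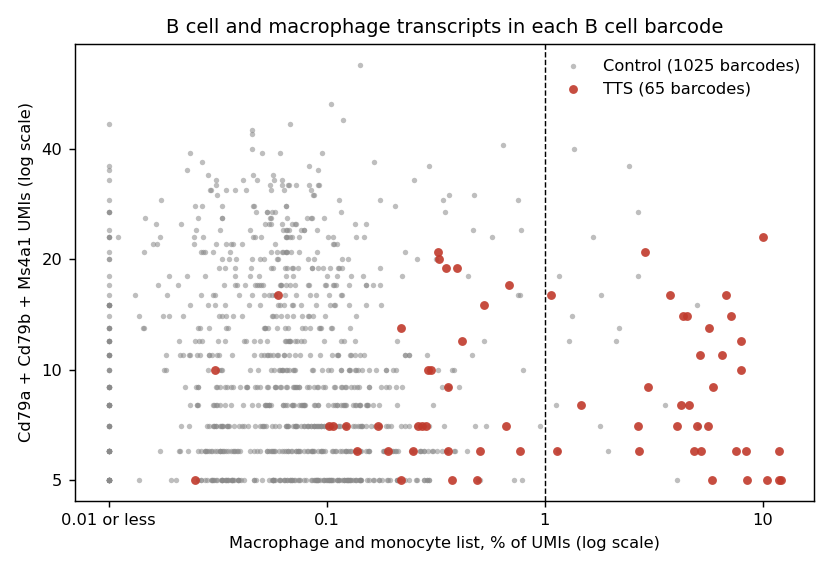
Each point is 1 B cell barcode (1025 control, 65 TTS); the x axis gives the percent of its UMIs on the macrophage and monocyte list and the y axis its UMIs of Cd79a, Cd79b, and Ms4a1, both on log scales, with the dashed line at 1%. Nearly all control barcodes lie left of the line (1004 of 1025), whereas 34 of 65 TTS barcodes lie right of it.

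A limit of 1% of UMIs on this list, chosen after the data were seen, separated the TTS barcodes. Below it lay 31 TTS B cells (47.7%, 95% CI 35.1% to 60.5%) with a median of 3362 UMIs, close to the 3610 UMIs of the 1004 control B cells below it. Above it lay 34 TTS B cells with a median of 10045.5 UMIs and 19 control B cells with a median of 10316 UMIs. The highest TTS barcode below the limit held 0.766%, and the next ones above it held 1.07%, 1.13%, 1.46%, and 2.67%. Myeloid transcripts were also higher in the TTS T cells, where Spp1 stood at 4879 CPM against 3.30 CPM in control T cells and Lyz2 at 7536 CPM against 489 CPM. Whether the high barcodes were droplets of more than 1 cell or B cells with free myeloid RNA was not tested. With this limit added, the B cell share was 17.8% in the control and 0.570% in the TTS library.

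The neutrophil list of 8 genes stood at 32.1 CPM (control) and 1336 CPM (TTS), and at 28.9 and 145 CPM below the 1% limit. The T cell list of 11 genes stood at 36.3 and 28.5 CPM and the NK cell list of 8 genes at 391 and 118 CPM, with Cd3d, Cd3e, Trac, Nkg7, Gzma, and Ncr1 at 0 in the TTS pool. Below the limit, the dendritic cell list stood at 44.3 and 168 CPM and the list of fibroblast, endothelial, and mural genes at 203 and 846 CPM. In the TTS cells, 81.8% of the UMIs of the former and 73.0% of the latter came from 1 barcode each. The part of these transcripts in the differences given below was not tested.

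Ighm was by far the most frequent heavy chain transcript of the control B cells. It was found in 911 of the 1025 cells (88.9%), with a median of 3 UMIs at a median depth of 3645 UMIs. An Ighm UMI was also found in 47.5% of control macrophages and 24.9% of control T cells, at median depths of 6612.5 and 5232 UMIs, so that 1 or 2 UMIs in a cell can be background. Thinned to 1000 UMIs the shares were 54.9%, 10.5%, and 6.73%. By heavy chain UMIs, 605 control B cells (59.0%, 95% CI 55.9% to 62.1%) held at least 3 Ighm UMIs, 306 (29.9%) held 1 or 2, and 113 (11%) held none. Only 1 control B cell was class-switched (0.0976%, 95% CI 0.00247% to 0.542%), by the rule of at least 3 UMIs of Igha, Ighg1, Ighg2b, Ighg2c, and Ighg3 that exceed those of Ighm. Ighg1 and Ighg2c were at 0, which allows up to 0.293% of cells with a UMI, and Ighg3 had 1 UMI. One other control cell held 6 Ighg2b UMIs, which did not exceed its Ighm UMIs. Ighd, the IgD gene that separates follicular from other naive B cells, was not analysed here. Among the TTS B cells, 29 of 65 (44.6%, 95% CI 32.3% to 57.5%) held at least 3 Ighm UMIs, 28 held 1 or 2, and 8 held none. Ighg2b had 3 UMIs in 1 TTS cell, which did not exceed its Ighm UMIs. No TTS B cell was class-switched, which with 65 cells allows a share of up to 4.62%.

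The Igha counts of the control came from 1 barcode. Of 1056 Igha UMIs, 1054 were in 1 cell, and the other 2 cells had 1 UMI each. Ighm was spread over cells but for 1 barcode with 5883 of its 10358 UMIs, the next cell having 29. Both barcodes were the only control B cells with 10 or more UMIs of Igj, the joining chain that links secreted IgM and IgA, with 514 and 430 UMIs, where no other control B cell had more than 1. The plot of immunoglobulin UMIs by barcode shows them apart from the other cells.

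**Figure D2:**
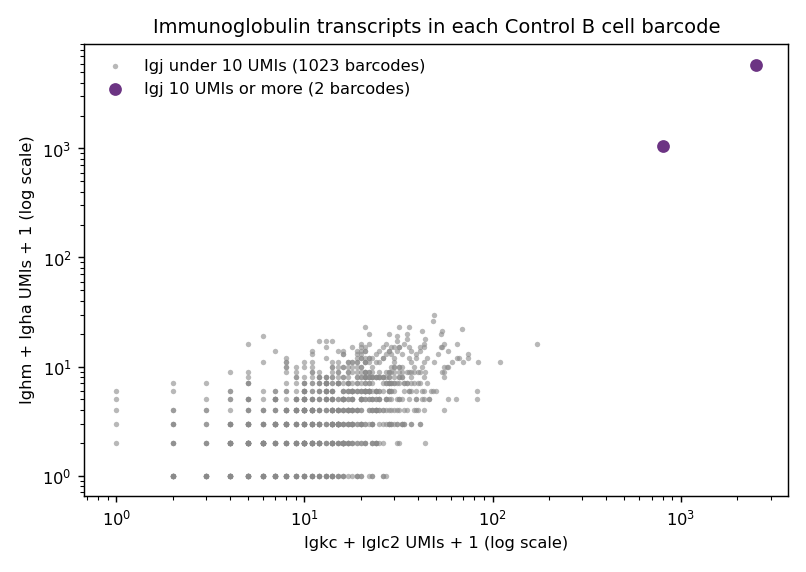
Each point is 1 of 1025 control B cell barcodes; the x axis gives Igkc plus Iglc2 UMIs and the y axis Ighm plus Igha UMIs, each plus 1, on log scales, and purple marks the 2 barcodes with at least 10 Igj UMIs. The 2 barcodes lie above 1000 heavy chain UMIs, whereas no other barcode exceeds 29 Ighm UMIs.

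The 2 barcodes carried further transcripts of antibody-secreting cells. The IgM barcode held 21881 UMIs on 3659 genes, with 2495 Igkc UMIs, 37 UMIs of Xbp1, the transcription factor of the secretory program, 18 of Mzb1, a chaperone of immunoglobulin assembly, and 5 of Derl3. Its κ variable segment was Igkv15-103, with 19 UMIs, and its heavy chain segment Ighv7-1, with 33 UMIs. The IgA barcode held 10351 UMIs on 2513 genes, with 791 Igkc UMIs, 64 Ighg2b UMIs, 51 of Mzb1, 15 of Xbp1, 10 of Tnfrsf17, which encodes the survival receptor BCMA, and 8 of Prdm1, the master regulator of plasma cells. Its segments were Igkv15-103 with 8 UMIs and Ighv1-78 with 6 UMIs. Other plasma cell genes had few UMIs. Sdc1 had 2 in the IgM and 1 in the IgA barcode, and Irf4 had 3 and 0. Prdm1 had 1 UMI and Tnfrsf17 had 2 in the IgM barcode. Both barcodes held no Pax5 or Cd22 UMI. The IgM barcode did hold 2 Ebf1 UMIs and 60 Ly6d UMIs (2742 CPM, against 2202 CPM in the control B cells below the 1% limit). Among the 1004 control B cells below the 1% limit, Tnfrsf17 was at 0 and Prdm1 was found in 1.99%. Variable segments resemble each other, so the segment names are uncertain. The 2 barcodes had 8 and 5 UMIs of the rule genes, and plasma cells with fewer would not have been selected by the rule.

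These 2 barcodes held 56.8% of the Ighm and nearly all of the Igha and Igj UMIs of the control pool, and pooled immunoglobulin levels depended on them. Ighm stood at 2214 CPM in the control pool with them and at 990 CPM (95% CI 961 to 1020) in the 1004 control B cells below the 1% limit, which leaves them out. In the TTS pool Ighm stood at 349 CPM in all B cells and at 754 CPM (95% CI 613 to 918) in the 31 below the limit. Below the limit, the log2 ratio of TTS over control was −0.39 (95% CI −0.70 to −0.11), where it was −2.66 over all B cells.

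κ and λ transcripts were found together in most control B cells. Mature B cells usually express only κ or only λ light chains. Of the 1025 control B cells, 257 (25.1%) had at least 90% of their light chain UMIs on Igkc, 61 (5.95%, 95% CI 4.58% to 7.58%) had at least 90% on Iglc2, 594 (58.0%) lay between, and 113 (11%) had fewer than 5 light chain UMIs. The median control B cell held 9 Igkc and 2 Iglc2 UMIs. Thinned to 1000 UMIs, Iglc2 was found in 49.6% of control B cells against 1.30% of macrophages, and Igkc in 79.1% against 3.09%. Of the λ constant genes, Iglc2 alone entered the counts, and reads of its near-identical copies could have been assigned to it or lost, which makes its level uncertain. Among the 65 TTS B cells, 19 were κ, 4 were λ (6.15%, 95% CI 1.70% to 15.0%), 39 (60.0%) lay between, and 3 had fewer than 5 light chain UMIs.

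**Figure D3:**
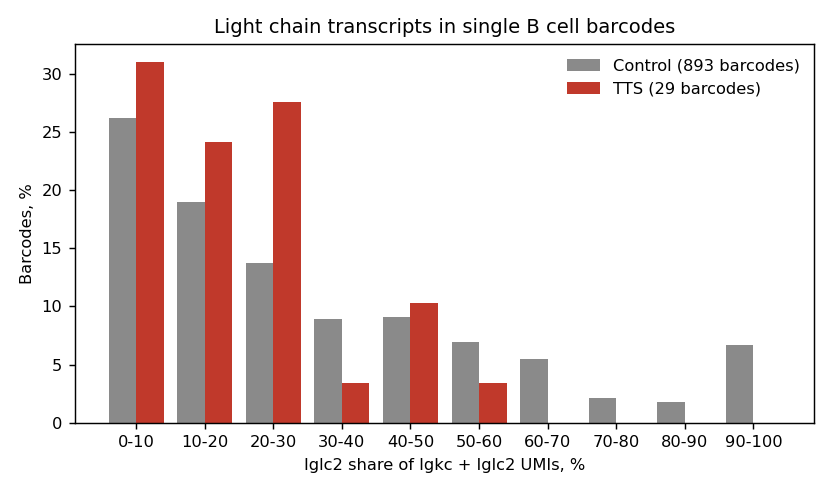
Bars give the percent of B cell barcodes (below the 1% limit and with at least 5 light chain UMIs; 893 control, 29 TTS) on the y axis, in each 10% bin of the Iglc2 share of Igkc plus Iglc2 UMIs, on the x axis. The control distribution declines from 26.2% in the lowest bin to 1.79% and ends at 6.72% in the highest bin; TTS barcodes lie between 0 and 60%.

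Both transcripts of few barcodes and transcripts of every cell varied most among control B cells. Over 1668 genes at 100 CPM or more, the variance of UMIs over its Poisson expectation had a median of 1.19. The highest ratios were 690 for Ighm, 463 for Igha, 143 for Igj, and 110 for Igkc, which came from the 2 plasma cell-like barcodes, and 64.1 for Lyz2. Below the 1% limit and without the 2 barcodes, Ccl5 (39.4), Gm26924 (33.6), Ccl4 (27.0), Gzma (25.1), mt-Rnr2 (21.4), and Malat1 (17.8) led. Gm26924, the mitochondrial ribosomal RNA mt-Rnr2, and the nuclear RNA Malat1 were found in every one of these cells. Ccl5 and Gzma, transcripts of cytotoxic lymphocytes, were found in 5.28% and 3.19% of these B cells. Iglc2 (15.9) and Ly6d (8.75) followed among the genes of the B lineage, at UMI counts of up to 172 and 56 per cell.

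Variation among the control B cells was described further by Vpreb3, an endoplasmic reticulum protein that associates with immunoglobulin chains and whose transcript is high in immature and transitional B cells. The control B cells below the 1% limit were divided by their Vpreb3 UMIs after thinning to 2000 UMIs, a split chosen after the data were seen. Of 1004 cells, 986 had this depth. Of these, 191 (19.4%) held at least 2 Vpreb3 UMIs, 210 held 1, and 585 held none. The first and last are called Vpreb3-positive and Vpreb3-negative here, and the division is a range and not a cell type, since the 210 cells with 1 UMI lie between. Median depth was 3426 UMIs in the positive and 3777 UMIs in the negative cells. As these are cells of 1 library, the differences are descriptions without a test.

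Of 1699 genes at a mean of 100 CPM or more, 36 (2.12%) were at least 2-fold higher and 6 (0.353%) at least 2-fold lower in the Vpreb3-positive cells, and the median log2 ratio was 0.09. Of the 8 defining markers, 4 were at least 2-fold higher, all 8 were above 0, and the median was 0.87. Of the 5 that the rule did not use, 2 (Ly6d and Ighm) were at least 2-fold higher, and Pax5 (0.73), Igkc (0.47), and Ebf1 (0.46) were not. Ly6d stood at 1611 CPM in the negative, 2284 CPM in the intermediate, and 4178 CPM in the positive cells, a log2 ratio of 1.37 (95% CI 1.31 to 1.44) between the last and the first. Ms4a1 had a log2 ratio of 1.30, Ighm of 1.05, and Cd79b of 1.01. The median number of rule gene UMIs was 19 in the positive and 8 in the negative cells, so the positive cells passed the rule by a wider margin.

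Transcripts of transitional B cells were higher in the Vpreb3-positive cells. Spib, an ETS family transcription factor, had a log2 ratio of 1.5 (847 against 300 CPM), and Cd24a, the heat stable antigen that is high on immature B cells, of 0.93 (586 against 308 CPM). Cd93, a surface protein used to define transitional B cells, was found in 33.0% of the positive (95% CI 26.4% to 40.1%) and 15.4% of the negative cells (95% CI 12.6% to 18.6%). Sox4 and Myb, transcription factors of early lymphocyte development, were found in 26.2% and 17.3% of the positive and in 6.67% and 5.47% of the negative cells. Rag1, which encodes a subunit of the recombinase that rearranges immunoglobulin genes, had 18 UMIs in 9 of 191 positive cells (4.71%, 95% CI 2.18% to 8.76%) and 2 UMIs in 1 of 585 negative cells (0.171%, 95% CI 0.00433% to 0.949%). Dntt and Vpreb1, genes of earlier precursors, were at 0 in the positive cells, with an upper 95% bound of 1.91%. Mki67, a marker of cycling cells, was found in 1.57% of the positive and 1.54% of the negative cells.

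The upstream sequence of Vpreb3 is shown because its transcript defines this division. The 250 bases before its start, at chr10:75948050-75948299 on the forward strand of GRCm38.p6, were taken from RefSeq. Capitals mark matches, on either strand, to the octamer ATTTGCAT, which POU factors bind in B cell genes, and to the ETS core AGGAAG.
Vpreb3 upstream: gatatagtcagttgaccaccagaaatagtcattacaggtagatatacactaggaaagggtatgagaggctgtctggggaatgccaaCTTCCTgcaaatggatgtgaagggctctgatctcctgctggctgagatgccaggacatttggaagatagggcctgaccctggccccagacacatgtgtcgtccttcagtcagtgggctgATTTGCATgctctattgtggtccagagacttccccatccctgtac
The octamer starts 45 bases before the start and the ETS core, on the reverse strand, 164 bases before it. Of 32851 upstream windows of this length, 1.6% held the octamer and 29.5% the ETS core. The Spib window held neither motif. These are matches of letters and not measured binding. Of the 23 defining, transitional, and heat shock genes looked up, 13 had an entry.

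The most different transcripts between the Vpreb3 classes were of several kinds. Higher in the positive cells were Akap12, a kinase-anchoring scaffold (log2 ratio 2.41, in 47.6% against 13% of cells), Fam129c (2.0), Pafah1b3 (1.71), the chromatin remodeling subunit Bcl7a (1.68), Pld4 (1.67), and Ifi30, a lysosomal thiol reductase (1.66). Inhibitors of B cell receptor signaling were also higher, with Ptpn6, the phosphatase SHP-1, at 1.34 and Siglecg at 1.21, while Cd22 was at 0.46 and Inpp5d at −0.02. Of the 4 genes of this list above the minimum, 2 were at least 2-fold higher. Tnfrsf13c, which encodes the BAFF receptor, had a log2 ratio of 1.08. Of 14 genes of B cell receptor signaling, none passed 2-fold and the median was 0.26.

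Genes of mature recirculating B cells and of antigen presentation were mostly below 0 in the Vpreb3-positive cells, few of them past 2-fold. The macrophage and monocyte list was lower too, at 761 against 1173 CPM, with Apoe at 162 against 472 CPM (−1.54), and control macrophages held H2-Aa at 5795 CPM. The part of macrophage transcripts in these differences was not tested. Fcer2a, which encodes the follicular marker CD23, stood at 134 against 290 CPM, a log2 ratio of −1.10 (95% CI −1.42 to −0.81), with 296 CPM in the intermediate cells. All 7 follicular genes were below 0, with a median of −0.27, and 1 was at least 2-fold lower. All 7 MHC class II genes were below 0 as well, with a median of −0.59 and none past 2-fold. H2-Aa stood at 1841 against 3534 CPM and at 3123 CPM in the intermediate cells, H2-Eb1 had a log2 ratio of −0.90, H2-Ab1 of −0.80, and Cd74, the invariant chain, of −0.17. The costimulatory gene Cd86 had a log2 ratio of −0.88 and Nr4a1, an early gene of receptor signaling, of −0.95. Ribosomal protein genes were lower by less, with 74 of 74 below 0 and a median of −0.39.

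**Figure D4:**
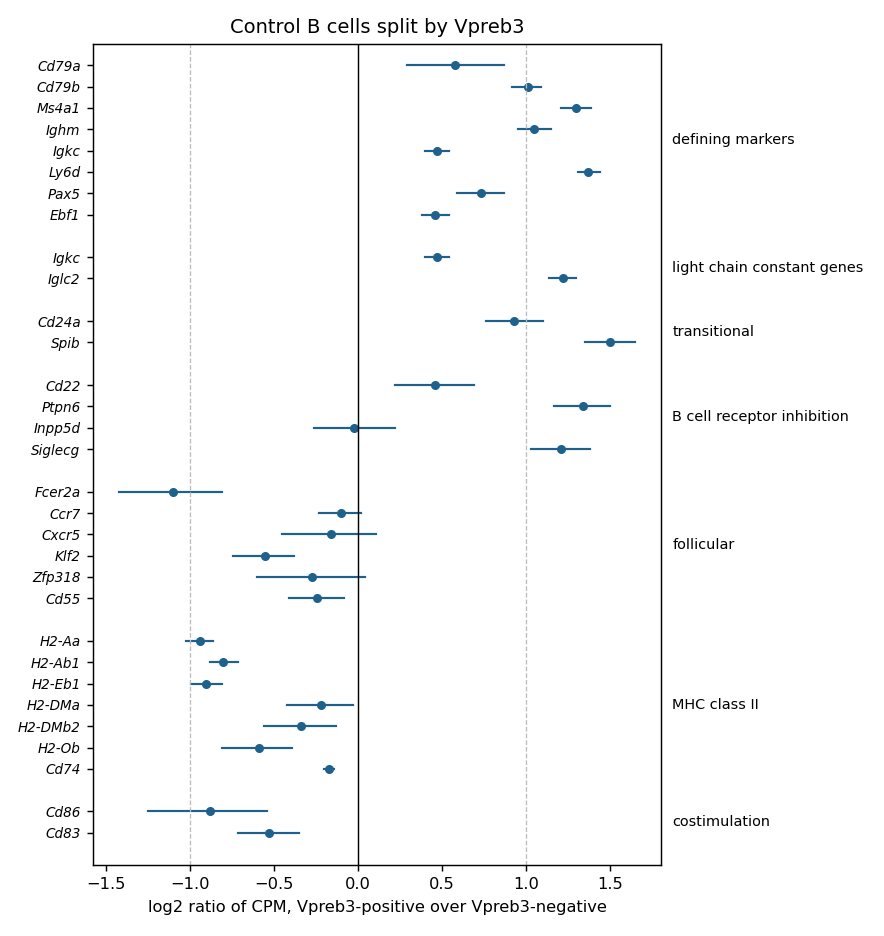
Points give the log2 ratio of CPM between 191 Vpreb3-positive and 585 Vpreb3-negative control B cells for genes of the named lists, with bars for 95% counting intervals and dashed lines at 2-fold. Ly6d (1.37), Spib (1.5), and Ptpn6 (1.34) lie to the right, and Fcer2a (−1.10) and the MHC class II genes to the left.

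Light chain use differed in level between the classes. Iglc2 stood at 2544 CPM in the positive and 1093 CPM in the negative cells, a log2 ratio of 1.22 (95% CI 1.14 to 1.30). The median Iglc2 share of light chain UMIs was 38.8% in the positive, 22.9% in the intermediate, and 17.6% in the negative cells. The share of cells with both light chains was 65.1%, 68.0%, and 64.6%, which differed by less than the counting intervals.

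A division by Ighm named many of the genes of the Vpreb3 division. Between 313 cells with at least 3 Ighm UMIs after thinning to 2000 UMIs and 247 with none, 27 of 1671 genes (1.62%) were at least 2-fold higher and 7 (0.419%) at least 2-fold lower. Fam129c (2.48), Akap12 (2.26), Vpreb3 (1.95), Iglc2 (1.48), and Spib (1.44) were again among the highest, and Plaur (−1.39), Cd86 (−1.08), and Bcl2l11 (−1.06) among the lowest. Ccl5 (−2.74) and Gzma (−1.72) were the lowest, and single barcodes held 27.1% and 32.5% of their UMIs in the Ighm-negative and 81.8% and 93.1% in the Ighm-positive cells. All 3 transitional genes above the minimum were at least 2-fold higher in the Ighm-positive cells. Both divisions use the same cells and are not independent.

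Cd22 did not divide the control B cells in this way. Cd22, a sialic acid-binding inhibitor of the B cell receptor, was found in 593 of 1025 control B cells (57.9%), with a median of 1 UMI and at most 7. After thinning to 1000 UMIs it was found in 20.5% of control B cells, against 0.399% of macrophages and 0.481% of T cells. Between 350 cells with a Cd22 UMI after thinning to 2000 UMIs and 636 without, 0 of 1668 genes (0%) were at least 2-fold higher, and 1 (0.0600%), the chemokine gene Ccl4, was at least 2-fold lower at a log2 ratio of −1.29. The highest ratio was 0.55, for Rfc1. At a median of 1 UMI, many cells without a Cd22 UMI may express it. In the TTS library Cd22 was found in 26 of 65 B cells, and in 6.15% of them after thinning (95% CI 1.70% to 15.0%).

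Cr2, the complement receptor CD21 that is highest on marginal zone cells, was found in 29.4% of control B cells, or 9.95% after thinning to 1000 UMIs against 0.599% of macrophages. Fcer2a was found in 20.4% of B cells and 0.998% of macrophages after thinning. Mki67 was found in 1.2% of the 1004 control B cells below the 1% limit.

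The TTS B cells, taken as a whole, differed from the control B cells mainly by myeloid transcripts. Over all B cells, 290 of 1698 genes (17.1%) were at least 2-fold higher and 222 (13.1%) at least 2-fold lower in the TTS pool, at a median log2 ratio of −0.04. The highest were Spp1 (10.94), the monocyte chemokine gene Ccl2 (8.64), Saa3, AA467197, Vcan, Il1a, Fcgr1, Arg1, Ccl7, and Chi3l3 (7.32), genes of monocytes and macrophages or of acute inflammation. All 16 macrophage and monocyte genes above the minimum were at least 2-fold higher, with a median of 4.84. Of these, only Lyz2 (568 CPM), Apoe (483 CPM), Il1b (332 CPM), Tyrobp (187 CPM), and Fcer1g (133 CPM) reached 100 CPM in the control pool. The others passed the minimum only through the TTS pool, so the count and the median partly follow from it. Of 8 defining markers, 5 were at least 2-fold lower, with a median of −1.48. The rule had selected on Cd79a, Cd79b, and Ms4a1 and had limited C1qa, C1qb, and C1qc, so these 6 genes are no independent measure. The lowest were Igha and Igj, which rest on the 2 plasma cell-like barcodes, and Ighm (−2.66), followed by mt-Tq (−2.47), Lars2 (−2.43), Gm19980 (−2.31), and Scd1 (−2.18). Gm26924 (−2.18), a predicted gene, took 53094 CPM of the control and 11729 CPM of the TTS pool.

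Below the 1% limit, the 31 TTS and 1004 control B cells were closer. Of 1658 genes, 93 (5.61%) were at least 2-fold higher and 78 (4.70%) at least 2-fold lower in the TTS pool, at a median log2 ratio of 0.03. Several of the highest came from 1 TTS barcode of 14095 UMIs, which held 35 of 37 UMIs of AA467197, all 28 of Ifitm1, 123 of 138 of S100a4, and 26 of 40 of Anxa2. That barcode had 6 UMIs of the rule genes, 9 of Igkc, 2 of Ly6d, and 4 of Ebf1, and 0.766% of its UMIs were on the macrophage and monocyte list. Without it, chosen after the data were seen, 57 genes were at least 2-fold higher and 63 at least 2-fold lower in the 30 remaining cells, of 1592. Another barcode held 60 of 63 UMIs of Fabp4 and all 15 of Sparc, and another barcode all 13 UMIs of Siglech, a plasmacytoid dendritic cell gene. Several values below are therefore also given as shares of cells or without the barcode that held the most UMIs of the gene.

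The B cell identity genes of the 31 TTS cells lay near or below those of the control. The 8 defining markers had a median log2 ratio of −0.41, with 1, Pax5 (−1.01, 95% CI −1.57 to −0.55), at least 2-fold lower, and none without the barcode above. Cd79a (0.42) and Cd79b (−0.02), on which the cells were selected, and Igkc (0.54) were not lower. Ly6d stood at 1181 against 2202 CPM (−0.89, 95% CI −1.14 to −0.67). Its UMIs per cell ranged from 0 to 16 with a median of 3 in the TTS and from 0 to 56 with a median of 7 in the control cells, so that the ranges overlapped throughout. Of 11 genes of B cell receptor signaling, none passed 2-fold, 9 were below 0, and the median was −0.48. The MHC class II genes were close to equal, with none of 8 past 2-fold and a median of 0.08, and H2-Aa stood at 3574 against 3144 CPM.

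All 3 transitional genes above the minimum were below 0, with a median log2 ratio of −0.99, and Vpreb3 was at least 2-fold lower. Vpreb3 had a log2 ratio of −1.27 (95% CI −2.00 to −0.69), but the share of cells with at least 2 Vpreb3 UMIs after thinning was 16.1% in the TTS (95% CI 5.45% to 33.7%) and 19.4% in the control cells (95% CI 16.9% to 22.0%). At this number of cells, a difference in the share of Vpreb3-positive cells was not detectable. Among the follicular genes Klf2, a transcription factor of lymphocyte quiescence and homing, was at least 2-fold higher, Fcer2a (−1.16) at least 2-fold lower, and the median of the 7 genes lay close to 0. Klf2 stood at 1295 against 522 CPM (1.32, 95% CI 1.08 to 1.54), and it was found in 74.2% of the TTS (95% CI 55.4% to 88.1%) and 52.2% of the control cells (95% CI 49.1% to 55.4%) after thinning. In T cells, to which the 1% limit was not applied here or below, the log2 ratio of Klf2 was −0.32, and in macrophages −0.87. One barcode held 56 of its 170 TTS UMIs, and without it the log2 ratio was 0.78.

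The heat shock genes above the minimum were higher in the TTS B cells. These genes encode chaperones that bind unfolded proteins, and they are induced by proteotoxic stress and by tissue dissociation. Of 8 heat shock genes above the minimum, 5 were at least 2-fold higher, all 8 were above 0, and the median log2 ratio was 1.19, against 0.03 over all genes tested. Without the barcode of 14095 UMIs, 5 of 8 were still at least 2-fold higher, with a median of 1.10. Hspa1a (39.5 CPM in the control), Hspa1b (34.6 CPM), and Dnajb1 (76.6 CPM) passed the minimum only through the TTS pool. The counts and medians of this list therefore partly follow from the minimum. Hspa1a and Hspa1b encode the inducible HSP70 proteins and are near-identical copies, so that the reads of each are uncertain. Hspa1a stood at 587 against 39.5 CPM (3.90, 95% CI 3.49 to 4.29) and Hspa1b at 320 against 34.6 CPM (3.22, 95% CI 2.68 to 3.71).

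Most cells of both libraries had no UMI of these 2 genes. Hspa1a ranged from 0 to 25 UMIs with a median of 0 in both, and after thinning it was found in 8 of 31 TTS cells (25.8%, 95% CI 11.9% to 44.6%) and 4.97% of control cells (95% CI 3.70% to 6.52%). Hspa1b was found in 29.0% (95% CI 14.2% to 48.0%) and 3.96% (95% CI 2.83% to 5.37%). Hsp90ab1, a constitutive HSP90, was found in every TTS cell and in 99.1% of control cells before thinning. It ranged from 2 to 103 UMIs with a median of 13 in the TTS and from 0 to 97 with a median of 5 in the control cells. Its log2 ratio was 1.30 (95% CI 1.16 to 1.43). Hsp90aa1 had a log2 ratio of 1.15, Dnajb1, an HSP40 cochaperone, of 1.22, and Hspa8 of 0.84. When the barcode with the most UMIs of each gene was left out, Hsp90aa1 at 0.88 and Dnajb1 at 0.46 were no longer past 2-fold, and Hspa8 was at 0.37. Hspa1a at 3.38, Hspa1b at 2.88, and Hsp90ab1 at 1.13 were still at least 2-fold higher.

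The other leukocytes of the same libraries differed from the B cells in some of these genes and not in others. In T cells the log2 ratio of TTS over control was 1.19 for Hspa1a (95% CI 0.99 to 1.4), 0.10 for Hspa1b, 0.78 for Hsp90ab1, and −0.62 for Dnajb1. In macrophages it was −1.28 for Hspa1a, −2.30 for Hspa1b, 0.61 for Hsp90ab1, and −1.19 for Dnajb1. Hspd1 was at 0.86 in B cells, 0.94 in T cells, and 0.84 in macrophages, and Hspe1 at 0.68, 0.16, and 0.89. In the same order, Hsp90aa1 was at 1.15, 0.52, and 0.14, and Hspa8 at 0.84, 0.22, and −0.04. Hsp90ab1, Hsp90aa1, and Hspd1 were higher in all 3 cell types of the TTS library, whereas Hspa1b was lower in its macrophages.

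The upstream sequence of Hspa1b is shown because Hspa1b was found in a larger share of the TTS cells. It spans chr17:34959239-34959488 on the reverse strand of GRCm38.p6, from RefSeq, and capitals mark a match to GAANNTTC, the core of the element that heat shock factors bind.
Hspa1b upstream: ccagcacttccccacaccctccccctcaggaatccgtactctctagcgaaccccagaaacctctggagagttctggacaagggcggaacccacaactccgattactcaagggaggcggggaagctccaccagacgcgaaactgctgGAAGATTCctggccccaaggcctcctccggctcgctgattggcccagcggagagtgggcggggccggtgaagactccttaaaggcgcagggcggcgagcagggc
The match starts 104 bases before the start, and 6.69% of the 32851 windows held the motif on either strand.

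**Figure D5:**
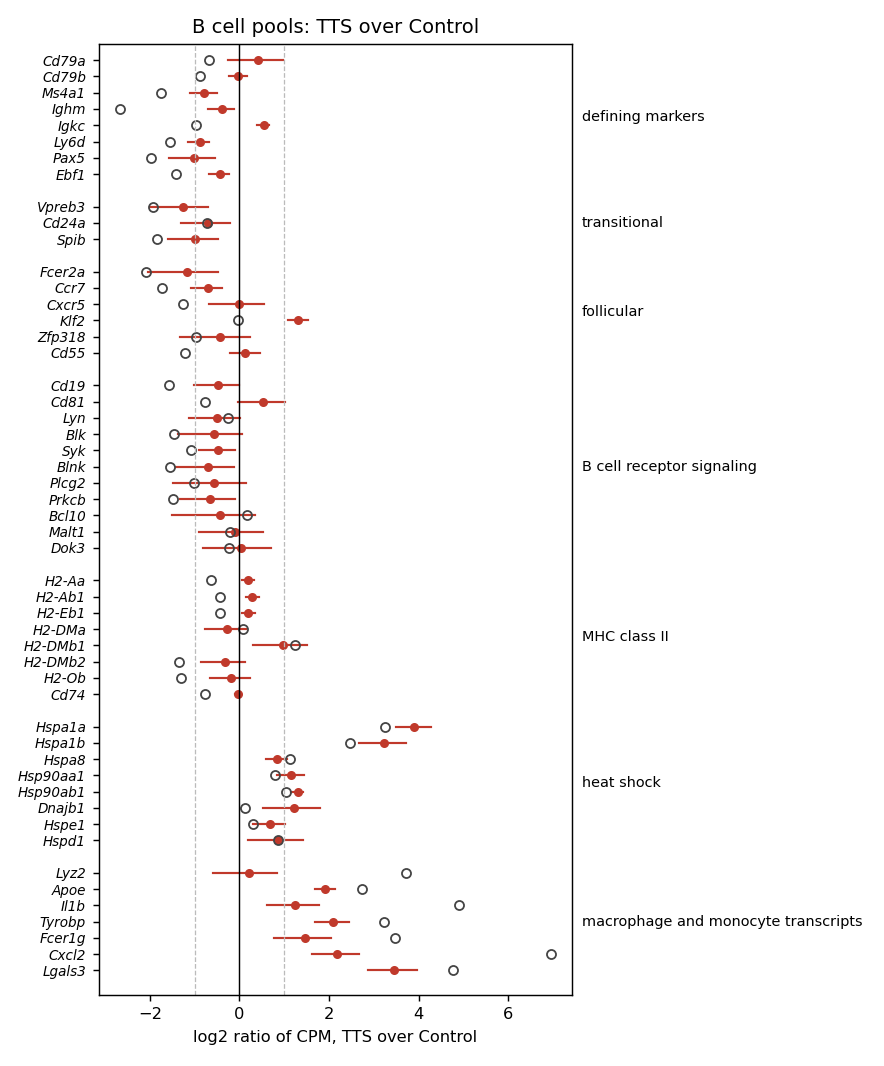
Filled points give the log2 ratio of CPM between 31 TTS and 1004 control B cells below the 1% limit, with bars for 95% counting intervals, and open circles the same ratio over all 65 and 1025 B cells; dashed lines mark 2-fold. The macrophage and monocyte genes lie farthest right in the open circles, and below the limit the heat shock genes Hspa1a (3.90) and Hspa1b (3.22) lie to the right and Fcer2a (−1.16) and Pax5 (−1.01) to the left.

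Myeloid transcripts were not absent below the limit. Of 7 macrophage and monocyte genes above the minimum, 6 were at least 2-fold higher, with a median of 1.92, and the list stood at 3528 CPM in the TTS and 1063 CPM in the control cells. Lgals3 (27.3 CPM in the control), Il1b (91.0 CPM), Cxcl2, and Fcer1g passed the minimum only through the TTS pool. The count and the median therefore partly follow from the minimum. C1qc, Pf4, and Csf1r were at 0 in the TTS cells. Apoe, the apolipoprotein E gene, was found in 80.6% of the TTS and 37.7% of the control cells after thinning, a log2 ratio of 1.92 (95% CI 1.69 to 2.13). It ranged from 0 to 16 UMIs with a median of 5 in the TTS and from 0 to 62 with a median of 1 in the control cells. In T cells Apoe had a log2 ratio of 3.30, and in macrophages, its main source, of −1.23. Il1b, the interleukin 1β gene, had a log2 ratio of 1.25 in B cells, 4.49 in T cells, and 1.56 in macrophages, and Lyz2 of 0.22 in B cells and 3.94 in T cells. These T cell values were taken without the 1% limit. Over all B cells, also without it, Apoe was at 2.73, Il1b at 4.91, and Lyz2 at 3.72. The part of myeloid RNA in the T cell ratios was not tested.

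Other transcripts were higher in the TTS cells below the limit. Ly6a, the interferon-inducible surface protein Sca-1, stood at 632 against 157 CPM (2.02, 95% CI 1.66 to 2.34) and was found in 48.4% of the TTS (95% CI 30.2% to 66.9%) and 18.8% of the control cells (95% CI 16.4% to 21.3%) after thinning, whereas in T cells its log2 ratio was −0.68. Bst2, another interferon-inducible gene, had a log2 ratio of 1.64, but 24 of its 42 UMIs came from 1 barcode, without which it was at 0.53. The interferon list had 3 genes above the minimum, of which these 2 were at least 2-fold higher, and Ifi27l2a was at −0.42. Id3, an inhibitor of E proteins, had a log2 ratio of 2.30, or 1.71 without the barcode that held 9 of its 25 UMIs. At 39.3 CPM in the control, Id3 passed the minimum only through the TTS pool. After thinning it was found in 19.4% of the TTS (95% CI 7.45% to 37.5%) and 5.98% of the control cells (95% CI 4.59% to 7.65%). Id3 was also higher in T cells (3.23) and macrophages (0.98). Mzb1 stood at 632 against 337 CPM (0.92, 95% CI 0.57 to 1.23) and was found in 71.0% (95% CI 52.0% to 85.8%) against 42.8% of cells (95% CI 39.7% to 46.0%).

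Of the 5 genes of the B1 cell list above the minimum, 4 were at least 2-fold higher, with a median of 2.77. They were S100a6, Lgals1, Anxa2, and Vim, which encode calcium-binding, lectin, and cytoskeletal proteins that many activated and myeloid cells express. Anxa2 (19.7 CPM in the control), S100a6 (84.3 CPM), and Lgals1 (55.6 CPM over all control B cells) passed the minimum only through the TTS pool. The count and the median therefore partly follow from the minimum. The barcode of 14095 UMIs held 75 of 140 UMIs of S100a6 and 64 of 120 of Vim, and without it 2 of 4 were at least 2-fold higher. The B1 cell genes Cd5 and Spn were below the minimum, at 7.62 and 22.9 CPM in the TTS cells.

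Among the transcripts that were lower below the limit, several are signaling or metabolic genes. Cxcr4, the receptor for CXCL12 that retains B cells in bone marrow, stood at 213 against 507 CPM (−1.22, 95% CI −1.84 to −0.71) and was found in 29.0% of the TTS (95% CI 14.2% to 48.0%) and 54.5% of the control cells (95% CI 51.3% to 57.6%) after thinning. In T cells its log2 ratio was 0.07 and in macrophages −0.28. Il4ra, the interleukin 4 receptor, had a log2 ratio of −1.22 and was found in 7 of 31 TTS cells and 42.8% of control cells. The transcription factor Bcl11a (−1.09) was found in 6 TTS cells, with 56.2% of its UMIs in 1 of them, and in 57.9% of control cells. Tcf3 (−1.03) was found in 7 TTS cells and the phosphatase gene Inpp5d (−1.02) in 12, against 45.2% and 59.7% of control cells. Scd1, a fatty acid desaturase, was at −1.35 in B cells, −1.82 in T cells, and −3.36 in macrophages. Ago2 was at −1.83 and Trim25 at −1.81 in B cells, with UMIs in 8 and 11 TTS cells, and at −0.59 and 1.43 in T cells. Egr1 was at −1.63, with 7 TTS UMIs in 3 cells, and Ccl5 at −3.32, with 2 UMIs.

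Ribosomal protein genes were slightly higher in the TTS cells, with 63 of 74 above 0 and a median log2 ratio of 0.34, and none past 2-fold. Among genes that β-adrenergic signaling or stress hormones act on, none of 3 genes of adrenergic and cAMP signaling passed 2-fold, with a median of −0.72, and 1 of 5 glucocorticoid-responsive genes was at least 2-fold lower, with a median of −0.49. Of 11 immediate early genes, 1 was at least 2-fold higher (Jun, 1.39), 1 at least 2-fold lower (Egr1), and the median was −0.01. The barcode with all Siglech UMIs held 22 of 64 Jun UMIs, and without it Jun was at 0.88. Gm26924 was lower in all 3 cell types of the TTS library, at −1.44 in B cells below the limit, −2.74 in T cells, and −2.46 in macrophages. In the same order, Lars2 was at −1.29, −2.98, and −2.35, and mt-Tq at −3.04, −1.73, and −1.94. With 131242 UMIs in the 31 TTS cells, a gene at 100 CPM rested on few UMIs, and intervals of the log2 ratio were wide for such genes.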

How the data were processed

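The deposited values are counts of UMIs per gene and barcode, without normalization, which the authors made with UMI-tools 1.0.0, STAR 2.7.3a, and featureCounts 1.6.4 on mm10, per the submitters' processing notes. Members and gene lists were chosen with earlier results of these data known. UMIs were summed over the cells of a pool, 0.5 UMI was added, and CPM of all UMIs were compared as log2 ratios for genes at a mean of at least 100 CPM. Genes named are defining markers, members of 33 lists (319 of 326 genes measured), immunoglobulin constant genes, the 10 largest log2 ratios each way with at least 20 UMIs, and the 10 most variable genes. Genes shown with a spread over cells, the 1% macrophage limit, and the Vpreb3, Ighm, and Cd22 divisions were chosen after the data were seen.

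Macrophages had at least 10 C1q UMIs and T cells at least 3 Cd3 UMIs, with at most 1 B cell UMI. The 1% macrophage limit was not applied to the T cells. Shares have exact Clopper-Pearson intervals, CPM exact Poisson intervals, and ratios of CPM exact conditional binomial intervals. The share that a count of 0 is said to allow is instead 3 divided by the number of cells. It is below the exact upper bound, which for 0 of 65 class-switched TTS cells was 5.52%. The interval of the ratio of shares is a normal approximation. Planned classes that need Ighd could not be formed, and Ighd, Ighe, Iglc1, Iglc3, Iglc4, Vpreb2, and Adrb3 were not analysed here. Some genes that the naming rule or the plotted lists include are not reported here. No doublet caller was run. Python 3.11.15, numpy 2.4.6, scipy 1.17.1, pandas 2.3.3, and matplotlib 3.10.9 were used, and the ratio step was tested on simulated data.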

Additional observations from a re-analysis of the deposited data

How the results depend on the processing

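The direction of the B cell share held under every alternative, with log2 ratios from −4.97 to −3.44. The shares in control and TTS were 26.7% and 1.64% with at least 3 B cell UMIs, 8.53% and 0.460% with at least 10, 16.4% and 0.864% after thinning to 1000 UMIs, 27.4% and 2.52% without the other limits (log2 ratio −3.44), 12.8% and 0.920% with no C1q or Cd3 UMI, and 30.1% and 1.87% among cells with at most 3 C1q UMIs. With the 1% macrophage limit the TTS share was 0.570% (log2 ratio −4.97). The class-switched share was 0 of 276 without cells that held both light chains or the most UMIs. The λ share was then 17.4%, against 7.61% with limits of 80% and 20% and 2.73% with at least 20 light chain UMIs. Genes at least 2-fold higher and lower in TTS were 159 and 91 at a mean of 200 CPM, 470 and 449 at 50 CPM, 190 and 118 in cells without C1q, Lyz2, S100a8, and S100a9 UMIs, 93 and 78 below the 1% limit, and 57 and 63 when the barcode with the most S100a4 UMIs was also left out. With the mean of each cell's CPM, 126 were lower. In the Vpreb3 division they were 19 and 2 when classed on all UMIs, 10 and 2 after thinning to 1000 UMIs, 94 and 37 from 3 Vpreb3 UMIs, and 19 and 2 at 200 CPM. The cause was not tested. The remaining alternatives moved the gene counts by less than 1.5 times. No paired analysis was possible because each group has 1 library, and no replicate could be left out. Alternatives that need Ighd were not run. The number of TTS cells limits their shares: with 31 cells, a count of 0 allows a share of up to 9.68%.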
